A study of Mus musculus with 15 samples.

Results

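The genes described are 10 genes of the G1 phase of the cell cycle: the kinases Cdk4 and Cdk6, the D-type cyclins Ccnd1, Ccnd2 and Ccnd3, the inhibitors Cdkn1b, Cdkn1c, Cdkn2c and Cdkn2d, and Rb1. They were chosen with earlier results of these data known. They were taken by name from a table of read counts that holds 20453 named genes. All 10 were found there and passed the filter on low counts. Each gene is represented by its RefSeq transcript with the highest mean count. In G1, a D-type cyclin binds CDK4 or CDK6, and the complex phosphorylates the retinoblastoma protein RB1, which then releases the E2F factors that drive the genes of DNA replication. Proteins of the INK4 family, such as p18 (Cdkn2c) and p19 (Cdkn2d), bind CDK4 and CDK6 themselves, while p27 (Cdkn1b) and p57 (Cdkn1c) bind complexes of cyclin and CDK. Blood stem cells rest outside the cycle and are known for high p57, granulocyte-macrophage progenitors (GMPs) divide quickly, and Cdk6 is known as a kinase on which leukemias with MLL fusions depend.

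The libraries were made from sorted mouse bone marrow cells of the strain C57BL/6. The labels describe a human MLL-AF9 cDNA, a fusion gene of acute myeloid leukemia, targeted into A2Lox-cre cells that had been treated with doxycycline. Chimeras made from selected clones were crossed to C57BL/6, and double heterozygous females were used. The groups are called wtGMP (4 libraries, replicates 1 to 4), LTearly (4 libraries, replicates 1 to 4), LTlate (3 libraries, replicates 2, 3 and 4) and BMTGMP (3 libraries, replicates 1, 2 and 4) in the sample titles. The labels give 1 text for all samples and spell out neither these names nor the genotype, age or time of a group: "wt" in the titles is the only mark that the first group lacks the fusion gene, and no label names the cells that carried it in the others. Lineage-positive cells were depleted with antibodies against Cd5, Cd11b, B220, Gr-1 and Ter119, and gates are described for GMPs and for long-term blood stem cells (LT-HSCs), without saying which gate gave which library. One further library, titled LTearly but heading a column named LTlate, was put in no group and is described at the end. No label says that replicates came from separate animals, so the tests measure the spread between these libraries only.

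The libraries held between 3487772 and 21462900 counts in the table. Depth went with group: wtGMP held 3487772 to 9814539 counts, LTearly 3843701 to 12312050, BMTGMP 6453011 to 15150921 and LTlate 16449149 to 21462900. GMP markers (12 genes) had a summed level of 20010 to 23462 CPM (counts scaled to library size by the TMM method) in wtGMP libraries, against 1708 to 7013 for LTearly, 2056 to 2477 for LTlate and 8514 to 11941 for BMTGMP. Mpo alone supplied most of the sum except for LTlate, with mean CPM of 17580 (wtGMP), 2058 (LTearly), 395.9 (LTlate) and 7679 (BMTGMP). By the test described below, 8 of the 12 fell and 0 rose for LTearly, where 9.46% of all genes tested fell and 10.7% rose. For LTlate 4 fell and 2 rose, where 3.01% of all genes fell and 7.65% rose. For BMTGMP 2 fell and 0 rose, where 2.17% of all genes fell and 4.35% rose. The mean of Fcgr3 was higher for LTearly (319.5) and LTlate (431.9) than for wtGMP (259.4), and lower for BMTGMP (208.9). Of 10 LT-HSC markers, Slamf1, the gene of the Cd150 antigen of the stem cell gate, was at 0 in every wtGMP and LTlate library. It averaged 0.89 CPM in LTearly (0 to 3.56). Hoxb5 was at 0 in all wtGMP, LTearly and LTlate libraries. Mecom averaged 27 CPM in LTearly, against 0.96 in wtGMP, 1.94 in LTlate and 0.56 in BMTGMP. Ly6a averaged 5.52 CPM in LTearly (1.42 to 16.3) and at most 1.53 in the other groups. The 10 together reached 28.7 to 52.6 CPM in wtGMP, and the libraries of LTearly, LTlate and BMTGMP reached 60.2 to 201, 105 to 185 and 210 to 314. Meis1 made up most of these sums, at a mean of 24 CPM in wtGMP and 103, 122.5 and 234.5 in those groups, while Gata2 averaged 12.6 CPM in wtGMP and 2.16 in BMTGMP. Itgam, the gene of the depleted antigen Cd11b, averaged 57 CPM in wtGMP, against means of 1304 (LTearly), 1310 (LTlate) and 473 (BMTGMP). Late neutrophil markers (14 genes, none at 0 in a whole group) summed to 173 to 293 CPM in wtGMP; the sums were 20020 to 31050 (LTearly), 5964 to 13505 (LTlate) and 1907 to 9662 (BMTGMP). The marker levels therefore moved with the groups compared below, and their part in the results on the G1 genes was not tested. In these bulk libraries, fewer cells of a type and less RNA per cell cannot be told apart.

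Promoter sequence was at hand for 6 of the 10 genes (8 start sites, RefSeq, GRCm38.p6). It is shown for Cdk4, Ccnd3 and Cdkn1b, 3 genes that changed in LTearly, as the 250 bases upstream of a start site. These are the windows on the + strand in which GENCODE M21 marks at most 1 base as exon, and that base was trimmed from the Cdk4 window. Cdk4 lies at chr10:127063285-127063533, Ccnd3 at chr17:47504801-47505050 (the upstream of its 2 starts) and Cdkn1b at chr6:134920151-134920400. Capitals mark matches, on either strand, to 5 motifs, with no overlap between matches: CACGTG (the E-box that MYC with MAX can bind), CCAAT (the box of NF-Y), GGGCGG (the GC box of SP1), the E2F site written as TTTCCCGC or TTTGGCGC, and TGTTTAC (a forkhead site).
Cdk4: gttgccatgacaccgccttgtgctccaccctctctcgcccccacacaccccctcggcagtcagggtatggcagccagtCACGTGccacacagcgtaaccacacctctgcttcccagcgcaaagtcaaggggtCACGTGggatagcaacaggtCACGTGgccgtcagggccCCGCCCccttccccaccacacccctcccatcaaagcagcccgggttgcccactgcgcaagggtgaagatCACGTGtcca
Ccnd3: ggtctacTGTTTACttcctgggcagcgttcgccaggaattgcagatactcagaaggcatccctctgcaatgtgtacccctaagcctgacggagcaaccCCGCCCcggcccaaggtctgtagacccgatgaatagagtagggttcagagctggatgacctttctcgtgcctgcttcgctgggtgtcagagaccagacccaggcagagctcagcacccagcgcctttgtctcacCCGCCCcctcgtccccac
Cdkn1b: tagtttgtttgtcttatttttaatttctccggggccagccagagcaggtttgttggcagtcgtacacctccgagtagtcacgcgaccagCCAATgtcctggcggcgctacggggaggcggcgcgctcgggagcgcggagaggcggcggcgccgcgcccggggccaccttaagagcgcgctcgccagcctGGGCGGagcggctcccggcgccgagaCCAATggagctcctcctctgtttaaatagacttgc
The Cdk4 window held 4 CACGTG and 1 GGGCGG. Of 32851 promoter windows of 250 bases, 6.02% held CACGTG at least 1 time and 0.0213%, or 7 windows, held it at least 4 times. The Ccnd3 window held 1 TGTTTAC, found in 3.17% of all windows, and 2 GGGCGG; 16.7% of all windows held GGGCGG at least 2 times. The Cdkn1b window held 2 CCAAT, and 10.1% of all windows held it at least 2 times, and 1 GGGCGG, found at least 1 time in 32.7%. Neither E2F spelling was found in any of the 8 windows, against 1.3% of all windows. The Cdk6 window, not printed, held 1 CACGTG. These are matches of letters and no measurement of binding.

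Against wtGMP, some of the G1 genes changed in each of the other groups, and others passed the test in none. Ccnd2 fell, and Ccnd3, Cdkn1c and Rb1 rose, in LTearly, LTlate and BMTGMP alike. In LTearly, Cdk4 also fell while Cdkn1b and Cdkn2d rose, and in LTlate Ccnd1 rose. Cdk6 passed the test in none of the 3 groups, and Cdkn2c likewise. The 3 comparisons share the 4 wtGMP libraries, so their values are given side by side and are not independent of each other. Calls are from edgeR's quasi-likelihood test with Benjamini-Hochberg adjustment over 14542 genes, at an adjusted p under 0.05, and fold changes are on the log2 scale with their standard error (SE).

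Counted over the 10 genes, 5 rose and 2 fell in LTearly, where 20.2% of all genes tested were called (10.7% higher and 9.46% lower). In LTlate 4 rose and 1 fell, where 10.7% of all genes were called (7.65% higher and 3.01% lower). In BMTGMP 3 rose and 1 fell, where 6.51% of all genes were called (4.35% higher and 2.17% lower). The genes were chosen with earlier results of these data known, so these counts are no test of the list. An unadjusted p under 0.05 (edgeR) was found for 7 of the 10 in LTearly, 10 in LTlate and 7 in BMTGMP. The share of all genes under it was not counted, here or for the unadjusted p below. The median log2 change of the 10 genes was 1.44 in LTearly, 1.45 in LTlate and 0.73 in BMTGMP, and that of all genes tested was 0.19, 0.01 and 0.06. The values of the group and of wtGMP did not overlap for 6 of the 10 genes in LTearly, 9 in LTlate and 8 in BMTGMP, and over all genes tested for 22%, 25.9% and 19.2%.

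**Figure D1:**
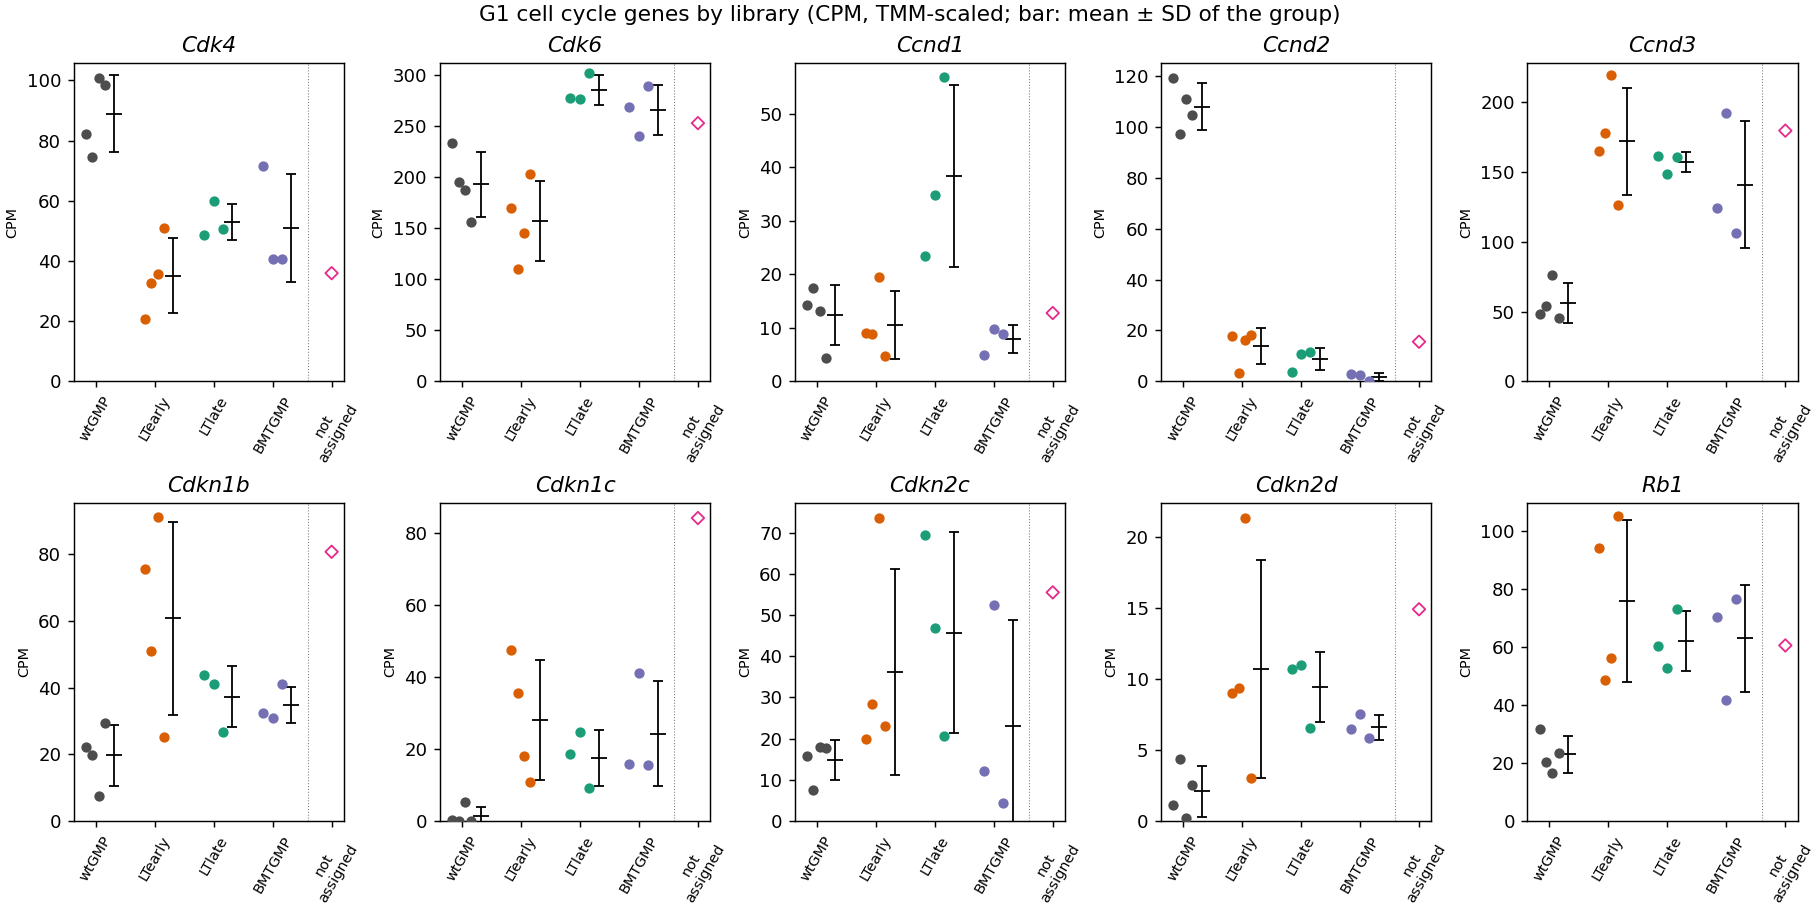
Level in CPM (linear axis from 0) of the 10 genes, 1 point per library, with the group mean ± SD beside it (n = 4, 4, 3 and 3); the open diamond is the library put in no group, and the bar of Cdkn2c in BMTGMP reaches below the axis. Ccnd2 lies between 97.2 and 119 CPM in wtGMP and at most 18.1 in the other groups, while Cdk6 is highest in LTlate and BMTGMP.

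**Figure D2:**
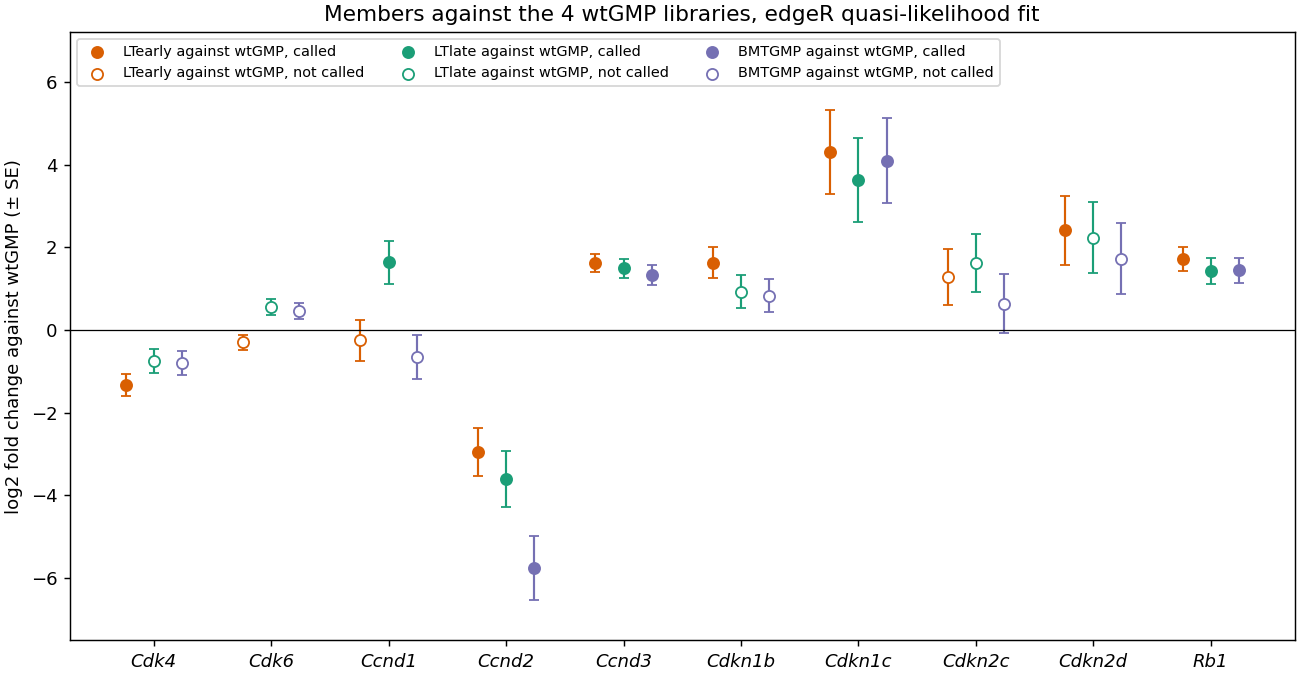
Log2 fold change of each gene against the 4 wtGMP libraries (± SE, edgeR), by group; filled points passed an adjusted p under 0.05 and open points did not. Ccnd2 lies below 0, and Ccnd3, Cdkn1c and Rb1 above 0, with filled points for all 3 groups.

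Cdk4, the kinase with the highest level per length in wtGMP, was lower in each of the other groups. Its CPM were 82.1, 74.5, 100.8 and 98.4 in wtGMP (mean 89 ± 12.7, SD, n = 4) and 20.9, 32.8, 35.8 and 51.1 in LTearly (35.2 ± 12.4, n = 4). All LTearly libraries lay below all wtGMP libraries, 2.52-fold lower on average in the fit (log2 change -1.33 ± 0.27 SE, edgeR adjusted p = 0.000627). In LTlate the values were 48.6, 59.8 and 50.8 CPM, and in BMTGMP 71.5, 40.55 and 40.7 CPM. These also lay below every wtGMP library, but the log2 changes of -0.75 ± 0.29 (adjusted p = 0.105) and -0.80 ± 0.29 (adjusted p = 0.107) did not pass the test. Without BMTGMP replicate 1 the log2 change there was -1.105 and passed the test (adjusted p = 0.0411), as did both changes in fits of only the 2 groups compared (adjusted p = 0.0118 in LTlate and 0.0451 in BMTGMP).

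With 1 transcript per gene, Cdk6 had the highest mean CPM of the 10 genes in each group except LTearly, where Ccnd3 had the higher mean; with the 3 Ccnd3 transcripts summed, Ccnd3 exceeded Cdk6 in every LTearly, LTlate and BMTGMP library. The CPM of Cdk6 were 233, 195, 187 and 155.5 in wtGMP (193 ± 31.8, SD, n = 4), 169, 110, 145.5 and 203 in LTearly (157 ± 39, n = 4), 277, 276 and 302 in LTlate (285 ± 14.6, n = 3) and 268, 239.9 and 289 in BMTGMP (266 ± 24.6, n = 3). The order of the means was LTlate, BMTGMP, wtGMP and LTearly. LTlate and BMTGMP overlapped (log2 difference 0.10 ± 0.21), wtGMP and LTearly overlapped (LTearly -0.30 ± 0.18, adjusted p = 0.272), and every LTlate and BMTGMP library lay above every wtGMP and LTearly library. Against wtGMP the log2 change was 0.56 ± 0.20 in LTlate (adjusted p = 0.0632) and 0.46 ± 0.20 in BMTGMP (adjusted p = 0.185), neither past the threshold. With DESeq2 the LTlate change of 0.53 passed it (adjusted p = 0.0373), as it did without wtGMP replicate 1 (0.65, adjusted p = 0.0463) and in a fit of these 2 groups alone (0.57, adjusted p = 0.00759).

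The level of Cdk6 in LTearly was lower than in BMTGMP, by 0.76 ± 0.20 on the log2 scale, or 1.69-fold (edgeR adjusted p = 0.0178). In this comparison 2 of the 10 genes were called, 1 higher (Ccnd2) and 1 lower, where 6.31% of all genes were (3.27% higher and 3.03% lower in LTearly). The call was lost without LTearly replicate 2 (-0.62), without BMTGMP replicate 1 (-0.76) and without BMTGMP replicate 4 (-0.71), in a fit of these 2 groups alone (-0.74), and with the ungrouped library, titled LTearly, counted as LTearly (-0.60, adjusted p = 0.07). Against LTlate, Cdk6 in LTearly was lower by 0.86 ± 0.20, or 1.81-fold, with an adjusted p of 0.0526. None of the 10 genes passed in that comparison, where 0.261% of all genes did (0.124% higher and 0.138% lower in LTearly). An unadjusted p under 0.05 was found for 3 of them, and the share of all genes under it was not counted. DESeq2 called 1 of the 10, Cdk6 (adjusted p = 0.0141). Over all alternatives the adjusted p of Cdk6 there ran from 0.0124, without LTearly replicate 4, to 0.219, without LTlate replicate 4.

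Per length of transcript, Cdk4 exceeded Cdk6 in every wtGMP library, in 3 of 4 LTearly libraries, and in 1 of 3 libraries each of LTlate and BMTGMP. CPM per kilobase averaged 43.3 ± 6.21 (SD, n = 4) for Cdk4 and 16.7 ± 2.76 for Cdk6 in wtGMP. The 2 means were 17.1 and 13.6 in LTearly, then 25.8 and 24.7 in LTlate, and 24.8 and 23 in BMTGMP. The ratio of Cdk6 to Cdk4 counts within a library, which no scaling of libraries changes, was 2.83, 2.61, 1.85 and 1.58 in wtGMP. It was 8.02, 3.33, 4.03 and 3.96 in LTearly, 5.69, 4.61 and 5.93 in LTlate and 3.74, 5.9 and 7.06 in BMTGMP. No library of the other 3 groups had a ratio as low as a wtGMP library. On the log2 scale the mean ratio was higher than in wtGMP by 1.08 in LTearly (exact two-sided permutation test, p = 0.0286, 0.114 after adjustment over 6 comparisons), by 1.32 in LTlate and by 1.32 in BMTGMP (exact p = 0.0571 and adjusted p = 0.114 for each). Each of these p-values is the smallest that so few libraries allow, and none passed after adjustment. Among LTearly, LTlate and BMTGMP the ratios overlapped (exact p from 0.514 to 1).

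**Figure D3:**
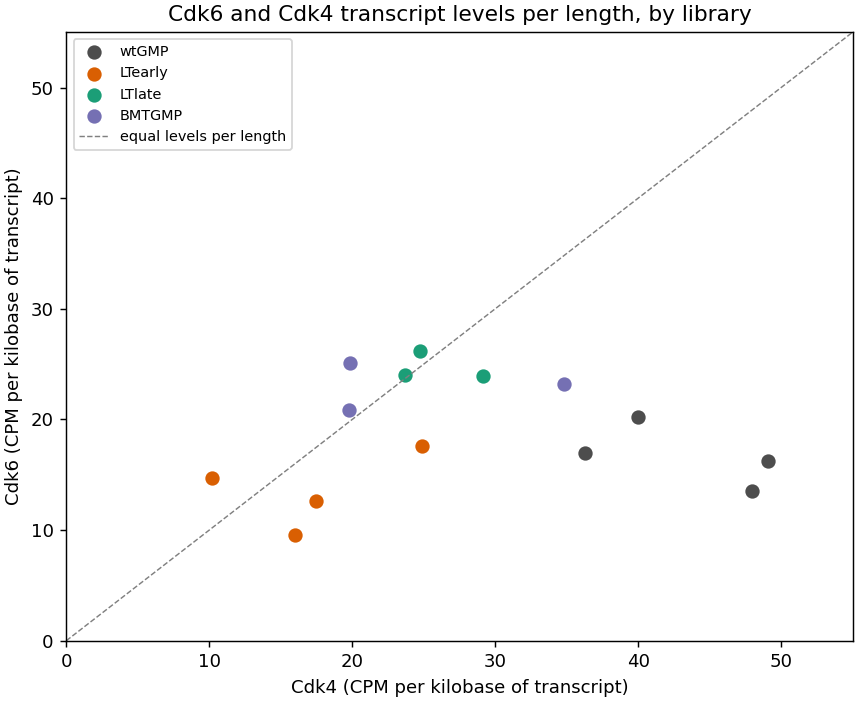
Cdk6 against Cdk4, both in CPM per kilobase of transcript, 1 point per library of the 4 groups; the dashed line marks equal levels. The 4 wtGMP libraries lie to the right, at 36.3 to 49.1 for Cdk4, and LTlate and BMTGMP lie above wtGMP for Cdk6, at 20.8 to 26.2.

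Of the D-type cyclins that partner these kinases, Ccnd2 fell and Ccnd3 rose. Ccnd2, cyclin D2, had 119, 97.2, 111 and 104.5 CPM in wtGMP (108 ± 9.33, SD, n = 4). It had 17.8, 3.13, 16.3 and 18.1 in LTearly, 3.88, 10.9 and 11.6 in LTlate, and 3.08, 2.34 and 0 in BMTGMP. All 10 values outside wtGMP lay far below the lowest wtGMP value. The log2 change was -2.96 ± 0.59 in LTearly (7.76-fold lower, edgeR adjusted p = 0.00204), -3.62 ± 0.68 in LTlate (12.3-fold lower, adjusted p = 0.0022) and -5.77 ± 0.78 in BMTGMP (54.5-fold lower, adjusted p = 0.000205). The 0 in BMTGMP replicate 4 allows up to 0.623 CPM (3 counts, counting error only). Ccnd2 was also higher in LTearly than in BMTGMP, by 2.81 ± 0.70 (edgeR adjusted p = 0.0276), a call lost without LTearly replicate 1 or 3 or BMTGMP replicate 1 or 2 (2.67, 2.75, 3.38 and 2.93), without the low-count filter (2.81) and in a fit of these 2 groups alone (2.91).

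Ccnd3, cyclin D3, was higher in the groups where Ccnd2 was lower. Its CPM were 48.1, 54.2, 76.4 and 45.2 in wtGMP (56 ± 14.1, SD, n = 4), 165, 178, 219 and 126 in LTearly (172 ± 38.3, n = 4), 161.5, 149 and 161 in LTlate (157 ± 7.14, n = 3) and 124, 192 and 106 in BMTGMP (141 ± 45.5, n = 3). Every library of these 3 groups lay above all wtGMP libraries. The log2 change was 1.62 ± 0.22 in LTearly (edgeR adjusted p = 6.19e-06), 1.49 ± 0.23 in LTlate (adjusted p = 6.22e-05) and 1.33 ± 0.23 in BMTGMP (adjusted p = 0.000344), or 3.06-, 2.8- and 2.51-fold. The 3 Ccnd3 transcripts in the table had nearly equal counts, so they were not told apart.

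Ccnd1, cyclin D1, was the least abundant D-type cyclin in wtGMP and differed mainly in LTlate. It had 14.3, 17.5, 13.2 and 4.46 CPM in wtGMP, 9.02, 8.86, 19.55 and 4.83 in LTearly, 23.35, 34.9 and 56.9 in LTlate, and 4.86, 9.88 and 8.94 in BMTGMP. The 3 LTlate values exceeded every other value. The log2 change against wtGMP was 1.63 ± 0.52 in LTlate (3.1-fold, edgeR adjusted p = 0.0408), and LTlate exceeded BMTGMP by 2.29 ± 0.58 (4.87-fold, adjusted p = 0.031), the 1 gene of the 10 called there, where 2.08% of all genes were (1.64% higher and 0.447% lower in LTlate). LTearly and BMTGMP overlapped with wtGMP (log2 change -0.25 ± 0.50, adjusted p = 0.792, and -0.65 ± 0.54, adjusted p = 0.57). Against LTearly the difference of 1.88 had an adjusted p of 0.109 and did not pass. The call against wtGMP was lost without wtGMP replicate 1, 3 or 4 or LTlate replicate 3 or 4 (1.235 in the last case), with transcripts summed per gene (adjusted p = 0.0652), and with the ungrouped library, whose column is named LTlate, counted as LTlate (1.37, adjusted p = 0.0781). The call against BMTGMP was lost without LTlate replicate 3 or 4 or without any 1 of the 3 BMTGMP libraries (1.89 to 2.49), with transcripts summed (adjusted p = 0.0721), and with the ungrouped library as LTlate (2.03, adjusted p = 0.0621).

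Shares were taken of the D-type cyclin counts in a library, with 1 transcript per gene. Ccnd2 made up 55.3% to 67.8% of wtGMP, while it took 1.65% to 12.2% of LTearly, 2.05% to 5.6% of LTlate and 0% to 2.34% of BMTGMP. Ccnd3 made up 26.5% to 38.1% of wtGMP, while it took 84.6% to 93.7% of LTearly, 70.1% to 85.6% of LTlate and 92.2% to 94% of BMTGMP. Ccnd1 made up 12.4% to 24.8% in LTlate and 2.89% to 10.4% in all the other libraries. The shares of Ccnd2 and Ccnd3 in wtGMP thus overlapped with those of no other group. Where all transcripts of a gene in the table held identical values, 7.72% were not whole with 2 transcripts and 8.48% with 3. For genes with 1 transcript it was 18.5%. Reads divided between 2 or 3 transcripts would not give this, so for genes with identical transcripts a sum would count a read more than once. Ccnd3 was not among them, and its values were often not whole, such as 333.5 in wtGMP replicate 1. Whether its reads were divided or counted whole was not settled. If they were divided, 1 transcript per gene understates Ccnd3. With the 3 Ccnd3 transcripts summed all the same, Ccnd2 made up 31.4% to 42.9% of wtGMP and at most 4.54% of any library of the other groups, and Ccnd3 was then the larger share in wtGMP too. With 4 libraries against 4 or 3 the exact two-sided permutation p was 0.0286 or 0.0571, the smallest possible, and 0.129 after adjustment over 18 comparisons. Per kilobase of transcript, Ccnd3 averaged 26.5 CPM and Ccnd2 17.1 in wtGMP, so that Ccnd3 was the higher by this measure in wtGMP too. In LTearly, LTlate and BMTGMP the Ccnd3 level was 81.4, 74.3 and 66.6 CPM per kilobase.

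**Figure D4:**
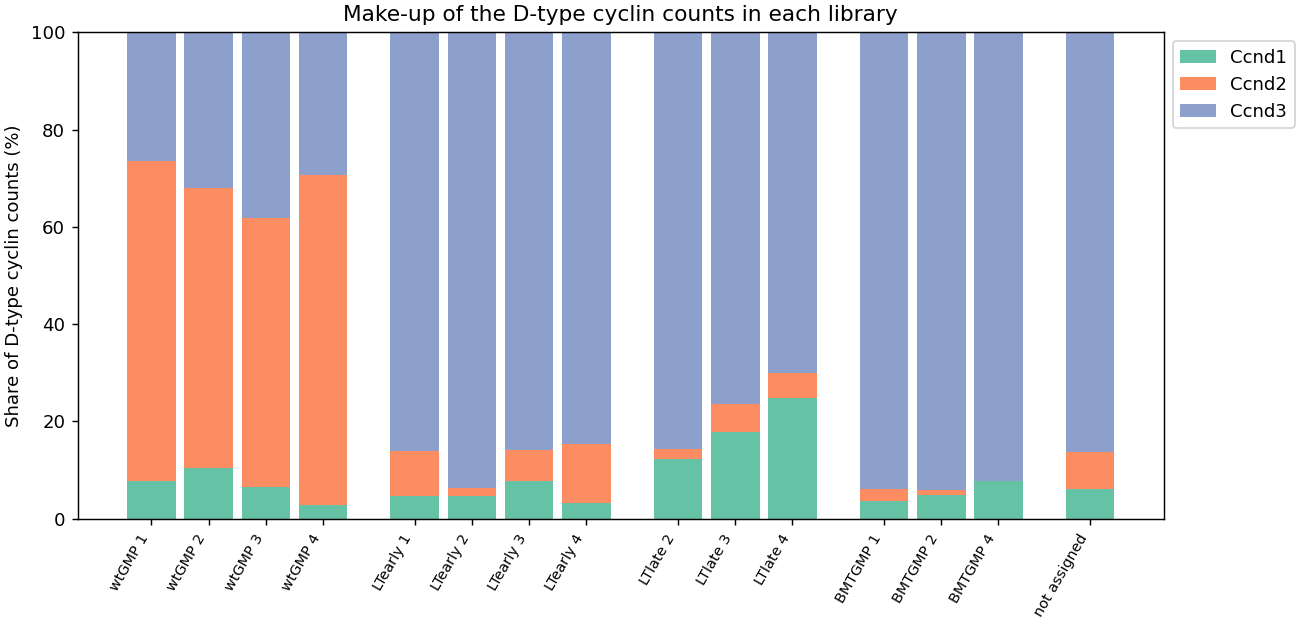
Share (%) of the D-type cyclin counts that came from Ccnd1, Ccnd2 and Ccnd3 in each library, with 1 transcript per gene and without correction for length; each bar is 1 library and sums to all 3 genes. Ccnd2 takes 55.3% or more of the bar in the 4 wtGMP libraries and at most 12.2% in the libraries of the other 3 groups.

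Among the inhibitors that bind cyclin and CDK together, Cdkn1c (p57) had the largest fold changes. In wtGMP it had 1 count in replicate 1, 23 counts (5.15 CPM) in replicate 3 and 0 in replicates 2 and 4, where 0 allows up to 1.19 and 0.956 CPM. It had 47.7, 35.7, 18.1 and 10.7 CPM in LTearly, 18.7, 24.6 and 9.25 in LTlate, and 16, 41.1 and 15.6 in BMTGMP. Every library of these groups lay above all wtGMP libraries. The log2 change was 4.30 ± 1.01 in LTearly (edgeR adjusted p = 0.00701), 3.62 ± 1.02 in LTlate (adjusted p = 0.034) and 4.09 ± 1.03 in BMTGMP (adjusted p = 0.0272). Replicate 3 of wtGMP set the size of these changes, which were 8.25, 7.53 and 8.02 without it. Over the 3 remaining wtGMP libraries there was 1 count, against 479 in LTearly, 640 in LTlate and 562 in BMTGMP. Scaled to the TMM library sizes, the ratios were 312 (95% exact binomial interval 55.8 to 12400), 212 (37.9 to 8390) and 305 (54.5 to 12100). The intervals hold counting error only, and the ratios rest on leaving out the 1 library with 23 counts. The calls in LTlate and BMTGMP were lost without wtGMP replicate 1, 2 or 4 (3.14 to 3.28 and 3.63 to 3.77), without any 1 of their own libraries (3.3 to 3.93 and 3.47 to 4.33), without the low-count filter (3.6 and 4.07), and with transcripts summed (adjusted p = 0.0657 and 0.0594). The call in LTearly was kept under every alternative run.

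Cdkn1b (p27) rose in LTearly. It had 22, 19.9, 7.39 and 29.3 CPM in wtGMP (19.7 ± 9.12, SD, n = 4), 75.5, 51.1, 91.2 and 25.2 in LTearly (60.7 ± 28.9, n = 4), 43.7, 41.1 and 26.8 in LTlate and 32.3, 30.9 and 40.9 in BMTGMP. LTearly replicate 4 lay within the wtGMP values and the other 3 LTearly libraries above them. The log2 change was 1.63 ± 0.38 in LTearly (3.09-fold, edgeR adjusted p = 0.00268), 0.92 ± 0.40 in LTlate (adjusted p = 0.154) and 0.82 ± 0.40 in BMTGMP (adjusted p = 0.256), the last 2 not called.

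The INK4 genes were less settled. Cdkn2d (p19) had 1.15, 4.38, 0.224 and 2.55 CPM in wtGMP, 9.02, 9.38, 21.4 and 3.06 in LTearly, 10.7, 11 and 6.58 in LTlate, and 6.45, 7.54 and 5.82 in BMTGMP. It rose in LTearly (log2 change 2.41 ± 0.84, edgeR adjusted p = 0.0409), although replicate 4 overlapped with wtGMP, and this call was lost under 10 of 17 alternatives, among them the fits without wtGMP replicate 1, 3 or 4 or LTearly replicate 1, 2 or 3 (1.87 to 2.59). In LTlate and BMTGMP no value overlapped with wtGMP, at log2 changes of 2.23 ± 0.86 (adjusted p = 0.104, and 0.0432 with DESeq2) and 1.72 ± 0.86 (adjusted p = 0.27), not called. Cdkn2c (p18) had 15.7, 7.57, 17.9 and 17.8 CPM in wtGMP, then 19.9, 28.4, 73.5 and 23.1 in LTearly, then 69.55, 46.9 and 20.7 in LTlate, and 12.2, 52.5 and 4.36 in BMTGMP. LTearly and LTlate lay above wtGMP and BMTGMP overlapped with it, and none was called (log2 change 1.27 ± 0.68, 1.62 ± 0.71 and 0.64 ± 0.71, adjusted p = 0.21, 0.185 and 0.722); fits of only the 2 groups called it in LTearly (1.33, adjusted p = 0.0456) and LTlate (1.62, adjusted p = 0.00506). Cdkn2a and Cdkn2b, the other genes of the family, singled out after their values were seen, had no count in any wtGMP library and averaged 1.84 and 1.11 CPM in LTearly, 3.67 and 2.3 in LTlate, and 2.05 and 0.519 in BMTGMP; neither was called against wtGMP (adjusted p from 0.0524 to 0.305).

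Rb1, the gene of the protein that the kinases phosphorylate, rose in each group. Its CPM were 31.7, 20.3, 16.6 and 23.6 in wtGMP (23 ± 6.44, SD, n = 4), 94.2, 48.5, 56.1 and 105 in LTearly (76.1 ± 28, n = 4), 60.2, 52.8 and 73.25 in LTlate (62.1 ± 10.4, n = 3) and 70.4, 41.85 and 76.7 in BMTGMP (63 ± 18.6, n = 3). All lay above the highest wtGMP library. The log2 change was 1.72 ± 0.29 (edgeR adjusted p = 8.95e-05), 1.42 ± 0.31 (adjusted p = 0.00204) and 1.44 ± 0.31 (adjusted p = 0.00272), or 3.29-, 2.68- and 2.72-fold.

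In each group other than wtGMP, the libraries at the ends of the late neutrophil sum were also at the ends for several of the G1 genes. With 3 or 4 libraries in a group, a library is often at an end for any gene. In BMTGMP, replicate 2 had 9662 CPM of late neutrophil markers against 1907 and 3270 in the others. It was the highest of the 3 for Ccnd1, Ccnd3, Cdkn1c, Cdkn2c and Cdkn2d and the lowest for Cdk4, Cdk6, Cdkn1b and Rb1. Its GMP markers, 11940 CPM against 8514 and 10620, were the highest too. Replicate 1 of BMTGMP had the lowest late neutrophil sum and was the highest for Cdk4 and Ccnd2 and the lowest for Ccnd1. The lowest Ccnd3, Cdkn1c, Cdkn2c and Cdkn2d of BMTGMP were in replicate 4. In LTlate, replicate 2 had the highest late neutrophil sum, 13510 CPM, and was the highest for Ccnd3, Cdkn1b and Cdkn2c and the lowest for Cdk4, Ccnd1 and Ccnd2. Replicate 4 of LTlate had the lowest sum, 5964 CPM. It was the lowest for Cdkn1b, Cdkn1c, Cdkn2c and Cdkn2d and the highest for Cdk6, Ccnd1, Ccnd2 and Rb1. In LTearly, replicate 3 had the highest sum, 31050 CPM, and was the highest for Ccnd1, Ccnd3, Cdkn1b, Cdkn2c and Cdkn2d. LTearly replicate 4 had the lowest sum, 20020 CPM. It was the lowest of the 4 for Ccnd1, Ccnd3, Cdkn1b, Cdkn1c and Cdkn2d and the highest for Cdk4, Cdk6, Ccnd2 and Rb1. Its GMP markers, 7013 CPM, were the highest of the group. The part of these cells in the changes was not tested. Across the 14 libraries, the closest pair of the 10 genes was Ccnd3 and Cdkn1c (Pearson r of log2 CPM 0.93), followed by Cdkn1b and Cdkn2d (0.89), and the most opposed was Cdk4 and Cdkn1b (-0.78); these points share group and library and carry no test.

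By the same measure, the genes whose pattern was most like that of Cdk6, among the 9792 genes that averaged 5 CPM or more, were Relch (r = 0.893), Mcrip1 (0.863), Ccdc14 (0.856), Cnot1 (0.843) and Champ1 (0.838). The likeness was taken over 14 libraries that differ by group and depth, and these r values are the highest of all genes compared. Mcrip1 ran only from 0 to 13.1 CPM, so its r rests in part on values at the floor.

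The wider pathway was taken from a list of other members. Of 30 other genes of G1 and the RB pathway, 3 rose and 2 fell in LTearly against wtGMP (median log2 change -0.18, against 0.19 for all genes), 5 rose in LTlate (-0.14 against 0.01) and 3 rose in BMTGMP (0.17 against 0.06). Over all genes 20.2%, 10.7% and 6.51% were called in these comparisons, so that the list's share was below that of all genes in LTearly and above it in the other comparisons. E2f2, an activating E2F factor, rose in each group and averaged 18.5 CPM in wtGMP, against 93 (LTearly), 100.8 (LTlate) and 52.5 (BMTGMP). Its log2 change was 2.33 ± 0.28 in LTearly (edgeR adjusted p = 8.16e-07), 2.44 ± 0.29 in LTlate (adjusted p = 1.13e-06) and 1.504 ± 0.29 in BMTGMP (adjusted p = 0.00101). Cdkn1a (p21) rose in LTearly (2.57 ± 0.63, adjusted p = 0.00396) and in LTlate (2.34 ± 0.65, adjusted p = 0.0168). Rbl2, the gene of the RB relative p130, rose in LTlate (0.86 ± 0.24, adjusted p = 0.017), and the repressor E2f7 rose in LTlate (1.30 ± 0.36, adjusted p = 0.016) and BMTGMP (1.19 ± 0.36, adjusted p = 0.0423). E2f8, another repressor, rose in BMTGMP (0.75 ± 0.20, adjusted p = 0.0178). Rbbp4 and E2f4 fell in LTearly (-0.67 ± 0.22, adjusted p = 0.0277, and -0.69 ± 0.24, adjusted p = 0.0375). Without wtGMP replicate 2 or 3, 1 gene of this list rose in LTlate and 1 in BMTGMP; 3, 3 and 2 rose without LTlate replicates 2, 3 and 4, and 1 without BMTGMP replicate 2 or 4. The 2 that fell in LTearly became 0 without wtGMP replicate 2 or LTearly replicate 1, and 1 without wtGMP replicate 1, 3 or 4 or LTearly replicate 3 or 4.

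Of 27 E2F target genes of S phase, which the pathway controls, 17 fell, 0 rose and 10 were not called in LTearly (median log2 change -0.96), where 9.46% of all genes fell. In LTlate 5 fell (-0.55), where 3.01% of all genes fell. In BMTGMP 0 were called (-0.23), where 6.51% of all genes were. Against BMTGMP, 11 of the 27 were lower in LTearly (-0.70, against 0.08 for all genes), where 3.03% of all genes were lower. Mcm2 and Mcm3, helicase subunits that open the DNA, fell in LTearly by 1.29 ± 0.19 (edgeR adjusted p = 1.65e-05) and 1.16 ± 0.18 (adjusted p = 2.32e-05), and Pola1, a polymerase subunit, fell by 1.29 ± 0.20 (adjusted p = 2.8e-05). In LTlate, Mcm7 fell by 0.91 ± 0.20 (adjusted p = 0.00228) and Tyms, which makes thymidylate, by 1.17 ± 0.27 (adjusted p = 0.00381). In BMTGMP 4 of the 27 had an unadjusted p under 0.05 and DESeq2 called 1. The count in LTlate was 2 without LTlate replicate 2 and 3 without replicate 3, and the lower count against BMTGMP was 7 without LTearly replicate 1, 6 without BMTGMP replicate 1 and 3 in a fit of these 2 groups alone.

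Mitosis follows S phase in the cycle. Of 20 genes of mitosis, 3 fell in LTearly (Bub1, Birc5 and Aurka, -0.93 ± 0.23, -0.74 ± 0.20 and -0.57 ± 0.20, edgeR adjusted p = 0.00397, 0.00708 and 0.0395), where 9.46% of all genes fell, and 12 had an unadjusted p under 0.05. With the same test 0 passed in LTlate and BMTGMP, where 10.7% and 6.51% of all genes were called. In each of these groups 2 had an unadjusted p under 0.05 and DESeq2 called 1, higher than in wtGMP. Without LTearly replicate 2, 9 fell, and without wtGMP replicate 2, 5 fell. The median log2 change of the 20 genes was -0.452 in LTearly, -0.057 in LTlate and -0.125 in BMTGMP, against 0.187, 0.007 and 0.058 for all genes. The summed level of the 20 genes was 11430 to 12107 CPM in wtGMP, 9379 to 14826 in LTearly, 12953 to 14521 in LTlate and 12600 to 14255 in BMTGMP. The LTearly sums thus lay on both sides of wtGMP. Mki67 alone averaged 6201 CPM in wtGMP, 8407 in LTlate and 8270 in BMTGMP, most of the sum there.

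**Figure D5:**
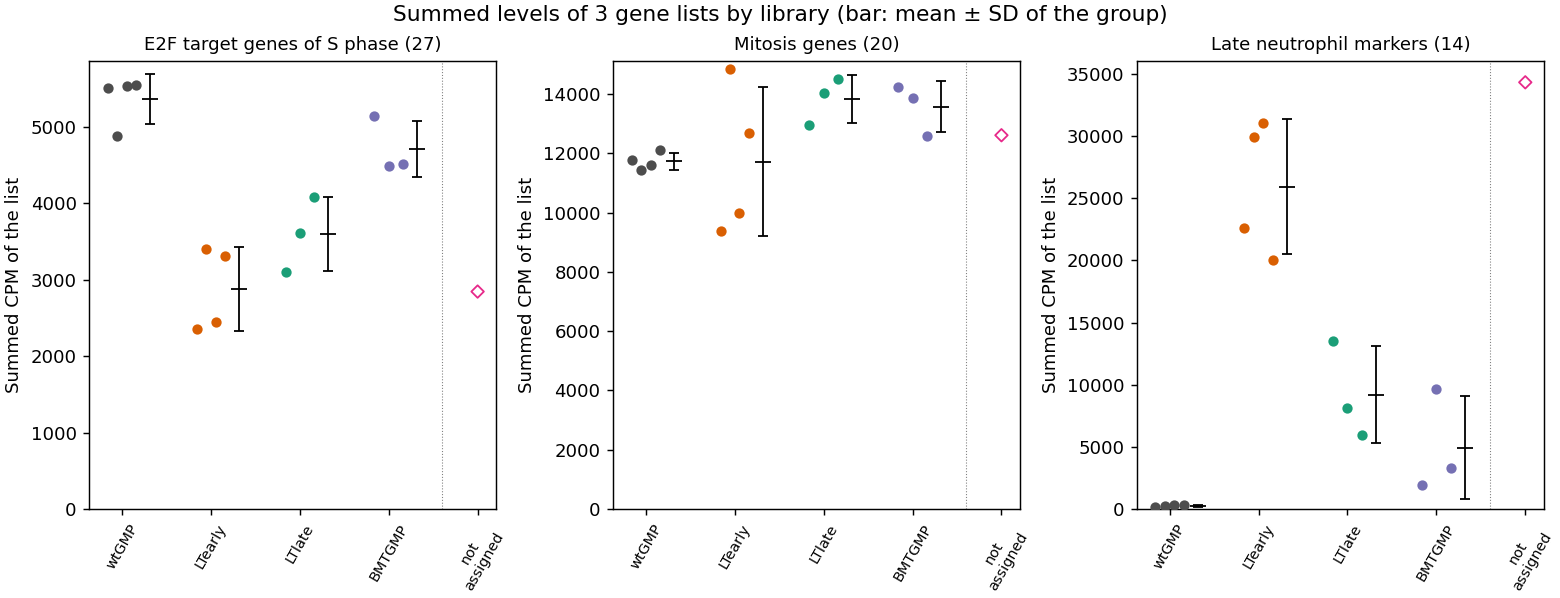
Summed CPM (linear axes from 0) of 27 E2F target genes of S phase, 20 mitosis genes and 14 late neutrophil markers, 1 point per library with the group mean ± SD; the open diamond is the library put in no group. The S-phase sum is 4877 to 5544 in wtGMP and 2362 to 3402 in LTearly, and the late neutrophil sum is at most 293 in wtGMP and at least 1907 in the other groups. Mki67 makes up most of the mitosis sum in wtGMP, LTlate and BMTGMP.

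Of 16 regulators named as acting on p27 and the D-type cyclins, 1 was called in LTearly, Myc, where 20.2% of all genes were called. In LTlate and BMTGMP 0 were called by edgeR, where 10.7% and 6.51% of all genes were. An unadjusted p under 0.05 was found for 6 of them in LTearly and for 1 each in LTlate and BMTGMP. Myc, a factor that binds the E-box, fell in LTearly from 83.3 ± 22.5 CPM (SD, n = 4) to 33.9 ± 11.2 (n = 4), a log2 change of -1.30 ± 0.27 (edgeR adjusted p = 0.000666). In LTlate and BMTGMP it averaged 65.4 and 59 CPM and overlapped with wtGMP (adjusted p = 0.499 and 0.338). Of the genes of the imprinted domain around Cdkn1c, 5 passed the filter. Only Cd81 of these was called. It rose in LTearly and LTlate (0.90 ± 0.28, edgeR adjusted p = 0.0212, and 1.11 ± 0.30, adjusted p = 0.012), where 10.7% and 7.65% of all genes rose. In BMTGMP 0 passed, where 6.51% of all genes were called. Nap1l4 and Tssc4 of that domain had log2 changes between -1.10 and -0.16 in the 3 groups, none called.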

How the data were processed

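RNA of sorted mouse bone marrow cells was sequenced, and the authors deposited expected counts of reads per RefSeq transcript on mm9, per the file headers, with a maxhits setting of 100. Bowtie 0.9.9.1 is named, per the submitters' processing notes. Of the values, 13.75% were not whole (tolerance 1e-06) and counts were rounded. Transcripts without a gene name (3.5% to 4.2% of counts) were left out, and 1 column of the table matched no sample and was not used.

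Gene symbols came from RefSeq and GENCODE M21 tables (26092 of 28847 transcripts). The 14 libraries with a group entered 1 edgeR fit (version 4.0.16, R 4.3.3; TMM scaling, filterByExpr, robust quasi-likelihood test, Benjamini-Hochberg over all genes tested; common biological coefficient of variation 0.748), without a replicate block. The library put in no group was scaled with these 14 in a further TMM step. Log2 CPM used a prior count of 2. Ratios and shares were tested with exact permutation tests over libraries (scipy 1.17.1), ratios with 1 added to each count. Levels per kilobase used GENCODE M21 transcript lengths. The steps were tested on simulated data. Besides leaving out each library in turn, 10 alternatives were run, among them DESeq2 1.42.0.

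The 10 genes and the 14 gene lists were chosen with earlier results of these data known. From a list, up to 4 genes with the smallest p in a comparison could be named, and for Cdk6 the 5 genes most like it.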

Additional observations from a re-analysis of the deposited data

Results flagged for a closer look

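In 3 of 20 sets of 4 libraries (10 genes in wtGMP and LTearly), 1 library stood apart from the others by a gap test at the 95% level, where chance flags about 1 in 20. Ccnd2 in LTearly replicate 2 was 3.13 CPM against 16.3 to 18.1 in the others, Cdkn1c in wtGMP replicate 3 was 5.15 CPM against 0 to 0.144, and Cdkn2c in LTearly replicate 3 was 73.5 CPM against 19.9 to 28.4.

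Groups other than wtGMP differed from each other in 3 cases by edgeR: Cdk6 between LTearly and BMTGMP (log2 difference -0.76, adjusted p = 0.0178), Ccnd2 between LTearly and BMTGMP (2.81, adjusted p = 0.0276) and Ccnd1 between LTlate and BMTGMP (2.29, adjusted p = 0.031).

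The library put in no group exceeded every wtGMP library in 7 of the 10 genes. They were Cdk6 at 252.5 CPM, Ccnd3 at 179.5, Cdkn1b at 80.7, Cdkn1c at 84.3, Cdkn2c at 55.5, Cdkn2d at 14.9 and Rb1 at 60.6 CPM. The share of all genes for which it did so was not counted, so the number cannot be set against a background.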

How the results depend on the processing

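The calls of Ccnd2, Ccnd3 and Rb1 against wtGMP in LTearly, LTlate and BMTGMP, and of Cdk4, Cdkn1b and Cdkn1c in LTearly, kept direction and side of the threshold under each alternative run. Against wtGMP, 7 of the 10 genes were called in LTearly (6 to 7 with 1 library left out), 5 in LTlate (3 to 4) and 4 in BMTGMP (3 to 4); in LTlate 3 were called with transcripts summed per gene and 8 in a fit of the 2 groups alone. Between LTearly and LTlate the count of 0 became 1 with DESeq2, without the low-count filter and with at least 1 CPM in 3 libraries (0 to 1 with 1 library left out). Between LTearly and BMTGMP the count of 2 became 1 without the low-count filter or with the ungrouped library as LTearly, and 0 in a fit of the 2 groups alone (0 to 2). Between LTlate and BMTGMP the count of 1 became 2 with DESeq2 and 0 with transcripts summed or with the ungrouped library as LTlate (0 to 1). The cause was not tested. The log2 ratio of Cdk6 to Cdk4 between LTlate and BMTGMP was -0.0011. It turned to 0.0939 with the ungrouped library as LTlate and ranged from -0.263 to 0.195 with 1 library left out (0.11, 0.0652 and 0.195 where positive). The Ccnd1 share between LTearly and BMTGMP, -0.356 points, ranged from -1.23 to 0.811 (0.253 and 0.811 where positive).

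Replicate numbers did not pair the libraries (18 same-numbered pairs correlated at -0.162 to 0.115, and 3 of 14 libraries were most like one of their own number). With the replicate block, the 10 genes gave calls for 6, 4 and 4 against wtGMP in LTearly, LTlate and BMTGMP, 1 between LTearly and LTlate (Cdk6, -0.93), 1 between LTearly and BMTGMP and 0 between LTlate and BMTGMP. The block ended the calls of Cdkn2d in LTearly (adjusted p = 0.0965), Ccnd1 in LTlate against wtGMP (0.0805) and BMTGMP (0.0737), and Ccnd2 between LTearly and BMTGMP (0.0542).

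Over all genes, calls moved from 38 to 256 with DESeq2 between LTearly and LTlate (141 without the filter, 21 with transcripts summed, 86 and 0 with the ungrouped library as LTearly or LTlate, 4 to 198 with 1 library left out), from 947 to 1423 with DESeq2 between BMTGMP and wtGMP, from 1549 to 2486 in the 2 groups alone and to 921 without LTlate replicate 2 between LTlate and wtGMP, from 917 to 1494 and 407 (the same 2 settings, DESeq2 and the 2 groups alone) and 583 without BMTGMP replicate 1 between LTearly and BMTGMP, and from 303 to 569 with DESeq2 and 155 without LTlate replicate 2 between LTlate and BMTGMP. S-phase targets lower in LTlate numbered 5, and 9 with either other scaling, 11 with DESeq2, 13 in the 2 groups alone and 12 with the ungrouped library as LTlate. Other scalings moved the median of all genes between LTearly and LTlate from 0.07 to 0.19. The share of calls that were higher moved from 51.9% to 64.5% with DESeq2 and 63.5% with median-ratio factors (LTearly against BMTGMP), from 47.4% to 69.5%, 63% and, with library totals, 60.7% (LTearly against LTlate), and with DESeq2 from 78.5% to 66.4% (LTlate against BMTGMP) and from 71.8% to 60.7% (LTlate against wtGMP). Low counts limit Cdkn1c and Cdkn2d in wtGMP (24 and 28 counts in all).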

Other observations

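The library put in no group carried Cdk4 at 36 CPM, Ccnd1 at 12.8 and Ccnd2 at 15.6 CPM. Its CPM came from a further TMM scaling that included it, while the libraries with a group were scaled without it. Its Cdkn1c level of 84.3 CPM was above that of every library with a group, of which the highest was 47.7. Its Cdk6 level of 252.5 CPM lay above all LTearly libraries (110 to 203) and below all LTlate libraries (276 to 302), within the BMTGMP values. Its Ccnd1 level lay within LTearly (4.83 to 19.55) and below LTlate (23.35 to 56.9). The ratio of its Cdk6 to Cdk4 counts was 7. Ccnd3, Ccnd2 and Ccnd1 made up 86.4%, 7.5% and 6.15% of its D-type cyclin counts. Its late neutrophil markers summed to 34330 CPM, above all libraries with a group, and its E2F targets of S phase to 2846 CPM, within LTearly.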
